A study of Mus musculus with 17 samples.

Results

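Hippocampal transcript levels of 8 genes with which astrocytes clear potassium, water and glutamate were compared between sham control and epileptic mice and between epileptic mice given 1 of 2 guide RNAs. The genes were Kcnj10, Kcnj16, Aqp4, Slc1a2, Slc1a3, Glul, Gja1 and Gjb6, chosen by symbol, and they are 8 of 55450 genes counted and 8 of 17615 with enough reads to be tested. Libraries were made from 17 hippocampi of adult mice. The 6 epileptic sgLacZ and 6 epileptic sgKcna1 mice had received kainic acid in the right amygdala, which brings on status epilepticus and then spontaneous seizures, and the 5 control sgLacZ mice were sham controls. Every group carried the AAV9 vectors in the right ventral hippocampus and ate doxycycline food, so controls too carried dCas9A, a Cas9 that cannot cut DNA and is fused to an activator of transcription. The guide sgLacZ (Ctrl-dCas9A) matches a bacterial gene, and sgKcna1 (Kcna1-dCas9A) matches the promoter of Kcna1, a neuronal potassium channel gene. A Camk2a promoter biased expression of the system towards excitatory neurons, so astrocytes were not its intended target.

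When neurons fire they release potassium and glutamate into a narrow extracellular space. Astrocytes take up potassium through inwardly rectifying channels, move water through aquaporin-4 at their end-feet, take up glutamate with 2 sodium-driven transporters and turn it into glutamine, and share these loads with neighbouring astrocytes through gap junctions. Weak clearance of potassium or glutamate is known to favour seizures.

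By edgeR, the main test, none of the 8 genes passed in any of the 3 comparisons with all libraries in the fit and reads of either strand. In epileptic against control sgLacZ hippocampi other tools or counts called members: DESeq2 called Slc1a3, limma voom with sample weights called Slc1a3 and Kcnj10, and edgeR on the 2 strand counts added together called Slc1a3 (adjusted P = 0.0486). The nearest by the main test were Slc1a3, 1.28-fold in favour of epileptic mice, and Kcnj10, 1.36-fold. Glul, Gja1 and Gjb6 differed by at most 0.04 on the log2 scale in that comparison.

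Before these values, the libraries and the targeted gene need description. Reads in genes ranged from 11839240 to 28311328 per library. A pair of libraries stood apart in their unmapped reads. Epileptic sgLacZ replicate 4 had 11.0% unmapped and was the deepest, and epileptic sgKcna1 replicate 12 had 41.5% unmapped and was the shallowest. Kcna1 had 37.6, 44.0, 25.5, 33.7 and 34.6 CPM (counts divided by library size, on 1 scale for all libraries) in the control sgLacZ libraries. It had 56.7, 33.3, 16.9, 30.0, 18.5 and 25.3 CPM in the epileptic sgLacZ libraries. In the libraries labelled epileptic sgKcna1 it had 132.5, 13.9, 15.1, 29.5, 19.5 and 18.7 CPM, the first being replicate 12. Apart from replicate 12 these lay within or below the range of the epileptic sgLacZ libraries, so the Kcna1 count did not set the labelled group apart (log2 fold change 0.32 ± 0.47 (SE), edgeR adjusted P = 0.706).

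Astrocyte transcripts were present in every library. The summed level of 8 astrocyte identity markers (Aldh1l1, Aldoc, Sox9, Fgfr3, Ntsr2, Cldn10, Acsbg1 and Gpr37l1) ranged from 1234 to 1412 CPM in control, from 1379 to 1606 in epileptic sgLacZ and from 1263 to 1643 in epileptic sgKcna1 libraries, and no marker was at 0 in any library. The tissue is whole hippocampus, with neuronal markers summing to between 6762 and 8327 CPM. In such bulk samples more astrocytes and more RNA per astrocyte cannot be told apart.

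The 250 bases upstream of the start site follow for Slc1a3, Kcnj10 and Kcnj16, since Slc1a3 and Kcnj10 came nearest to the threshold and Slc1a3 and Kcnj16 were the pair whose levels moved together most clearly from library to library. The sequences are those of RefSeq on GRCm38.p6. Sequences were taken for 7 of the 8 genes, because entries on the chromosome of Aqp4 were left out. They are written 5′ to 3′ on the strand of the gene, and capitals mark CCAAT or TATAAA on either strand.
Slc1a3, chr15:8710808-8711057, minus strand: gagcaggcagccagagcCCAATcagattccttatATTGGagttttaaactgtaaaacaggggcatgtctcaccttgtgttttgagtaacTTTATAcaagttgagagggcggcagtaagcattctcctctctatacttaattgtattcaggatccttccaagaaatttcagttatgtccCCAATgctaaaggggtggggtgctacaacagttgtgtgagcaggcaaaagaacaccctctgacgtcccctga
Kcnj10, chr1:172340960-172341209, plus strand: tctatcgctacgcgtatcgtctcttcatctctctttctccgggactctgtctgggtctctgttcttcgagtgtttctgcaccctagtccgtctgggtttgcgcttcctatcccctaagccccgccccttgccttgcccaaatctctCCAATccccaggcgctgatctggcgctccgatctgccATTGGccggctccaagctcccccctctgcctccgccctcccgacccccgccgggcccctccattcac
Kcnj16, first of 4 start sites, chr11:110967783-110968032, plus strand: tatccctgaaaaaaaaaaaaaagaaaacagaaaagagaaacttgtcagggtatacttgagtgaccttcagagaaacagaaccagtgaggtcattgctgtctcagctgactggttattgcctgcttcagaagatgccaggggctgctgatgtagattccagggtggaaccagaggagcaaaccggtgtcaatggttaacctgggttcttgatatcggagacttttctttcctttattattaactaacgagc
The Slc1a3 sequence held 3 CCAAT and 1 TATAAA, the Kcnj10 sequence 2 CCAAT, and the sequence at the first Kcnj16 start site neither. Of the other Kcnj16 start sites, the third held 1 TATAAA and the fourth 1 CCAAT. Of all 32851 upstream sequences of that length, 33.8% held CCAAT and 12.4% held TATAAA. The Kcnj10 sequence was rich in G and C (62.0%, with 17 CG dinucleotides). Slc1a3 had 44.8% and 2, and the first Kcnj16 start site 42.8% and 3, while its other start sites had from 44.8% to 51.2% and from 1 to 7, against a median over all such sequences of 52.4% and 6. The letters alone are no evidence that a factor binds there.

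The 8 genes lie on 7 chromosomes of mm10 (GRCm38.p6). Kcnj10 (ENSMUSG00000044708.5) lies at chr1:172341210-172374085 and Glul (ENSMUSG00000026473.15) at chr1:153899929-153909723. Kcnj16 (ENSMUSG00000051497.15) lies at chr11:110968033-111027968 and Aqp4 (ENSMUSG00000024411.10) at chr18:15389394-15410982. Slc1a2 (ENSMUSG00000005089.15) lies at chr2:102658239-102790784 and Slc1a3 (ENSMUSG00000005360.14) at chr15:8634124-8710807. Gja1 (ENSMUSG00000050953.10) lies at chr10:56377300-56390419 and Gjb6 (ENSMUSG00000040055.9) at chr14:57123301-57133611. For no gene of the 8 did the 2 strand counts add up to over 5% more than the unstranded count, so reads shared with genes on the opposite strand took little from them.

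Per kilobase of exon, Glul was the most abundant of the 8 in every group, at 421 ± 32.3 CPM per kb (SD, n = 5) in controls. It encodes glutamine synthetase, which joins ammonia to glutamate. Slc1a2 followed at 93.3 ± 8.44 and Gja1 at 66.5 ± 1.93 (SD, n = 5 each). Slc1a3 had 39.1 ± 2.31, Gjb6 25.7 ± 2.43, Aqp4 18.7 ± 1.86 and Kcnj10 14.1 ± 1.65 CPM per kb, and Kcnj16 was lowest at 3.17 ± 0.365 (SD, n = 5 each). The order was the same in all 3 groups. Ranges of neighbours overlapped for Aqp4 and Kcnj10 in every group, and for Gja1 and Slc1a3 and for Gjb6 and Aqp4 in both epileptic groups. Other neighbours did not overlap. Exon lengths join all annotated isoforms, so a gene with long rare exons reads low on this scale.

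**Figure D1:**
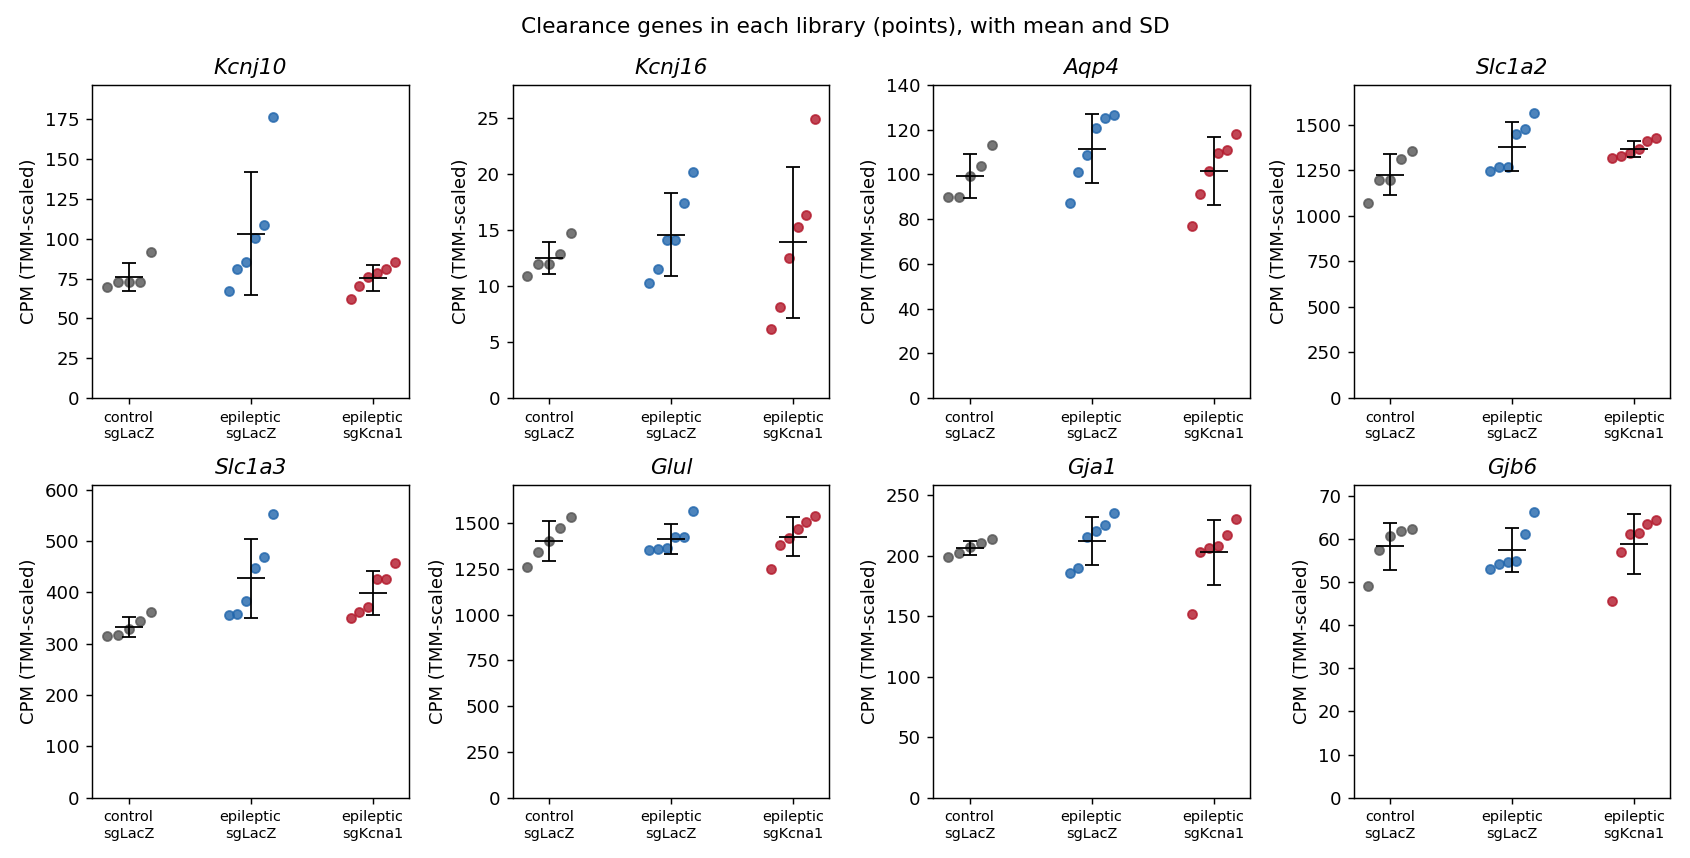
Level of each of the 8 genes (CPM, TMM-scaled, linear axis from 0) in each library, by group, with 1 point per library and the mean with SD as a bar. Epileptic sgLacZ replicate 4 is the high point for Kcnj10 at 176 CPM, and epileptic sgKcna1 replicate 12 is the low point for Gja1 at 151 CPM.

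The question for epilepsy was whether clearance transcripts differ between epileptic and control hippocampi under the same sgLacZ guide. At an adjusted P under 0.05, 0 of the 8 genes passed in edgeR, against 11% of all genes tested. That share was unstable. As given with the partner genes below, leaving out single libraries took it to 0, lowered it or raised it. At an unadjusted P under 0.05, 2 of 8 passed, both higher in epileptic mice, against 34.7% of all genes in either direction and 18.8% higher. None of the 8 separated the groups without overlap, as 4.39% of all genes did. The median absolute log2 fold change was 0.17 over the 8 genes and 0.31 over all genes, and the median signed value was 0.17 against 0.02. The 8 genes are abundant, with a median SE of 0.11 against 0.20 over all genes.

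Of the potassium genes, Kcnj10 encodes Kir4.1, the main inward rectifier of astrocytes. It had 69.8, 72.7, 72.8, 73.0 and 91.9 CPM in the 5 control libraries. The 6 epileptic sgLacZ libraries ran from 67.2 to 176 CPM with a median of 92.9. The lowest epileptic library lay below every control, while 3 of 6 lay above them all. The log2 fold change was 0.44 ± 0.18 (SE), with a 95% interval from 0.06 to 0.82 (edgeR, adjusted P = 0.0978). Without replicate 4, the library with the lowest unmapped share, it was 0.22 (edgeR, adjusted P = 0.258). With the unmapped share as a covariate it was 0.21 (edgeR, adjusted P = 0.433). Limma voom with sample weights gave 0.32 (adjusted P = 0.0341). Without epileptic sgLacZ replicate 5, the lowest of its group, it was 0.54 and passed (edgeR, adjusted P = 0.0230).

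Kcnj16 encodes Kir5.1, which pairs with Kir4.1 into a channel sensitive to pH. Controls had 12.0, 10.9, 12.0, 14.7 and 12.9 CPM, and epileptic sgLacZ libraries from 10.2 to 20.2 with a median of 14.1. The ranges overlapped and the difference was 0.23 on the log2 scale, with a wide 95% interval from -0.33 to 0.79 (edgeR, adjusted P = 0.560). It had the fewest reads of the 8, from 66 to 593 per library.

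Aqp4 encodes the water channel of the end-feet. Controls had 99.2, 103.8, 113.1, 89.8 and 89.8 CPM, and epileptic sgLacZ libraries from 87.2 to 126 with a median of 115. The groups overlapped, although 3 of 6 epileptic libraries lay above every control. On the log2 scale the difference was 0.17, with a 95% interval from -0.08 to 0.42 (edgeR, adjusted P = 0.316).

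Of the glutamate transporters, Slc1a3 encodes GLAST (EAAT1). It had 315, 328, 317, 362 and 345 CPM in controls. Epileptic sgLacZ libraries ran from 356 to 553 CPM with a median of 415. Of 6 epileptic libraries 4 lay above every control, and the other two lay inside the upper end of the control range. The log2 fold change was 0.36 ± 0.12 (SE), with a 95% interval from 0.12 to 0.60 (edgeR, adjusted P = 0.0513), just short of the threshold. DESeq2 gave an adjusted P of 0.0298 and limma voom with sample weights 0.00535. In edgeR without replicate 4 the value was 0.27 (adjusted P = 0.125), and with the unmapped share as a covariate it was 0.23 (edgeR, adjusted P = 0.153). It passed without epileptic sgLacZ replicate 5 (0.41, edgeR adjusted P = 0.0145), without epileptic sgLacZ replicate 8 (0.41, adjusted P = 0.0363) and without epileptic sgKcna1 replicate 12 (0.36, adjusted P = 0.0258).

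Slc1a2 encodes GLT-1 (EAAT2), which carries most glutamate uptake in the forebrain. Controls had 1073, 1196, 1197, 1357 and 1311 CPM, and epileptic sgLacZ libraries from 1249 to 1567 with a median of 1358. Of 6 epileptic libraries 3 lay above every control. This gave a log2 fold change of 0.17, with a 95% interval from -0.02 to 0.36 (edgeR, adjusted P = 0.189).

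Glul had the smallest difference of the 8. Controls had 1404, 1341, 1258, 1472 and 1532 CPM, and epileptic sgLacZ libraries from 1351 to 1566 with a median of 1392. All but the highest epileptic library lay inside the control range. Its log2 fold change was 0.01, with a 95% interval from -0.17 to 0.19 (edgeR, adjusted P = 0.932).

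The gap junction genes did not pass either. Gja1 encodes connexin 43 and had 210, 214, 207, 199 and 202 CPM in controls, a narrow range, and from 185 to 235 with a median of 218 in epileptic sgLacZ libraries. The epileptic libraries fell on both sides of the controls. The log2 fold change was 0.04, with a 95% interval from -0.17 to 0.24 (edgeR, adjusted P = 0.812). Gjb6 encodes connexin 30, and had 60.6, 62.3, 57.5, 61.9 and 49.0 CPM in controls and from 53.0 to 66.2 with a median of 54.8 in epileptic sgLacZ libraries. Its log2 fold change was -0.02, with a 95% interval from -0.23 to 0.19 (edgeR, adjusted P = 0.891). For Glul and both connexins the intervals leave room for changes of up to 0.24 in size on the log2 scale.

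**Figure D2:**
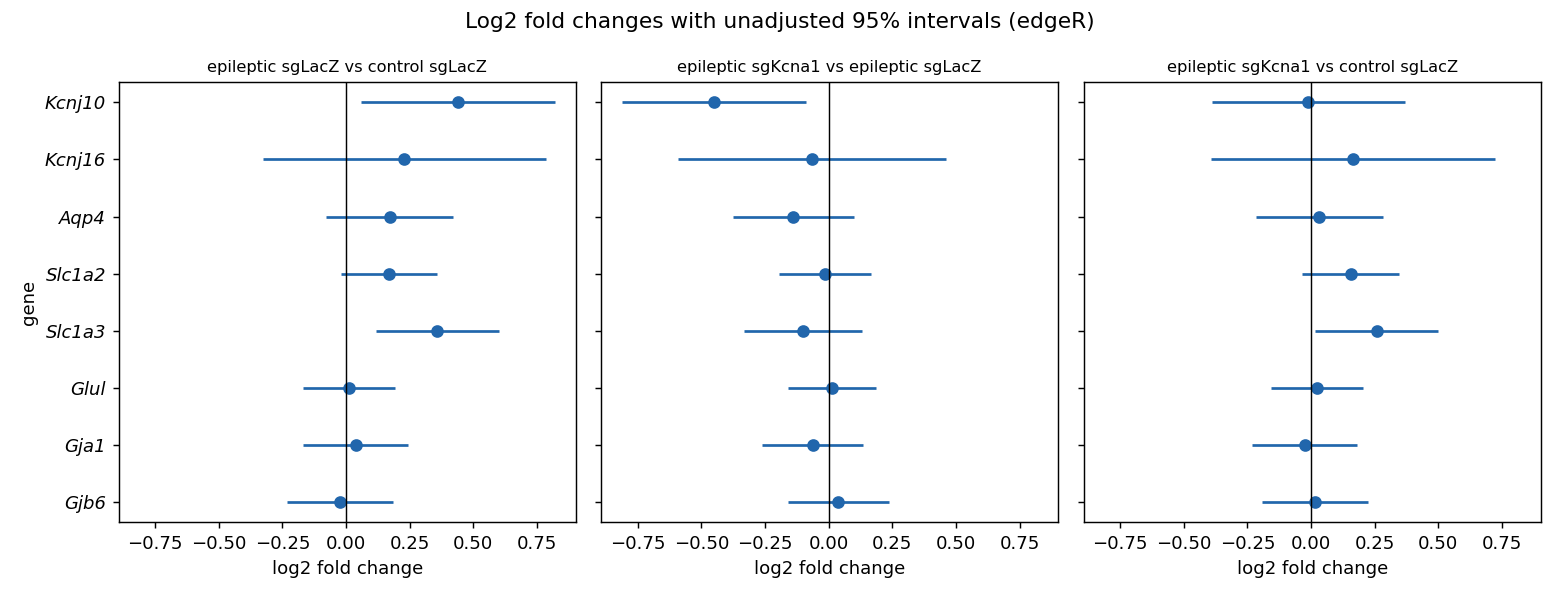
Log2 fold change (x axis) of each of the 8 genes (y axis) in the 3 comparisons, with points for edgeR estimates and lines for unadjusted 95% intervals. The intervals of Kcnj10 and Slc1a3 lie above 0 in epileptic against control sgLacZ libraries, that of Kcnj10 lies below 0 in epileptic sgKcna1 against epileptic sgLacZ libraries, and neither passed after adjustment over all genes.

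Epileptic sgKcna1 mice were set against epileptic sgLacZ mice to ask whether the Kcna1 guide altered clearance transcripts in epileptic tissue. By edgeR's adjusted P, 0 of 8 genes passed, as did 0% of all genes. DESeq2 called 112 of all genes and none of the 8. At an unadjusted P under 0.05 edgeR gave 1 of 8 against 19.2% of all genes, and no gene of the 8 was free of overlap, against 0.483% of all genes. The median absolute log2 fold change was 0.06 over the 8 genes and 0.23 over all genes.

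The one with the small P was Kcnj10. Epileptic sgKcna1 libraries ran from 62.3 to 85.2 CPM with a median of 77.0, while the epileptic sgLacZ libraries reached 176. The log2 fold change was -0.45 ± 0.17 (SE), with a 95% interval from -0.81 to -0.09 (edgeR, adjusted P = 0.217). Without epileptic sgLacZ replicate 4 it was -0.23 (edgeR, adjusted P = 0.479). Without epileptic sgLacZ replicate 5, the lowest of its group, it was -0.55 and passed (edgeR, adjusted P = 0.0464).

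For the other 7 genes this log2 fold change lay between -0.14 (Aqp4) and 0.04 (Gjb6). Slc1a3 ran from 351 to 457 CPM with a median of 398 in the epileptic sgKcna1 libraries, a log2 fold change of -0.10 with a 95% interval from -0.33 to 0.13 (edgeR, adjusted P = 0.600). Slc1a2 stayed between 1319 and 1425 CPM with a median of 1356, the smallest relative spread of the 8 genes in that group, and its log2 fold change was -0.01 with a 95% interval from -0.19 to 0.17. Glul ran from 1247 to 1537 CPM with a median of 1444 (log2 fold change 0.01, 95% interval from -0.16 to 0.18).

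Kcnj16 spread more in the epileptic sgKcna1 group than elsewhere, from 6.16 to 25.0 CPM with a median of 13.9, and its log2 fold change was -0.06 with a 95% interval from -0.59 to 0.46. Aqp4 ran from 76.8 to 118 CPM with a median of 105. Gja1 ran from 151 to 230 with a median of 207 and Gjb6 from 45.6 to 64.3 with a median of 61.2. Replicate 12, with the most unmapped reads, was the lowest of its group for Kcnj10, Kcnj16, Slc1a3, Glul, Gja1 and Gjb6, and not for Aqp4 or Slc1a2. Whether its unmapped share had a part in this was not tested.

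Epileptic sgKcna1 against control sgLacZ libraries, which shares a group with each of the other comparisons, gave 0 of 8 by edgeR's adjusted P, again beside 0% of all genes, while DESeq2 called 39 of all genes and none of the 8. At an unadjusted P under 0.05 it gave 1 of 8 beside 6.77%, and none free of overlap beside 1.14%. That gene was Slc1a3, at a log2 fold change of 0.26 with a 95% interval from 0.02 to 0.50 (edgeR, adjusted P = 0.711), and 4 of 6 epileptic sgKcna1 libraries lay above every control. Slc1a2 had 0.16 (95% interval from -0.03 to 0.35) and Kcnj16 0.16 (from -0.39 to 0.72). Kcnj10, at -0.01, had an interval from -0.39 to 0.37, and the values of Aqp4, Glul, Gja1 and Gjb6 lay between -0.03 and 0.03.

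Ratios of paired genes within a library do not depend on library scaling. The log2 ratio of Slc1a2 to Slc1a3 reads was 1.77, 1.86, 1.92, 1.91 and 1.93 in controls. In epileptic sgLacZ libraries it ran from 1.42 to 1.83. Of 6 epileptic libraries 3 lay below every control and all lay below 4 of the 5 controls, and the mean log2 ratio was 1.70 ± 0.16 (SD, n = 6) against 1.88 ± 0.07 (SD, n = 5). The difference of -0.17 had P = 0.0303 in a two-sided exact permutation test and 0.273 after adjustment over 9 ratio tests. Without replicate 4, where it was 1.42, the difference was -0.12. In epileptic sgKcna1 libraries the mean log2 ratio was 1.78 ± 0.15 (SD, n = 6), with 3 libraries from 1.63 to 1.68 and 3 from 1.88 to 1.94.

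The Gja1 to Gjb6 ratio was 1.83 ± 0.13 on the log2 scale in controls (SD, n = 5), 1.88 ± 0.14 in epileptic sgLacZ and 1.78 ± 0.13 in epileptic sgKcna1 libraries (SD, n = 6 each), with no difference past the test (exact permutation, smallest P = 0.212). Kcnj10 to Kcnj16, the subunits of one channel, had a ratio from 4.95 to 7.10 in controls and from 5.73 to 8.72 in epileptic sgLacZ libraries. In epileptic sgKcna1 libraries the ratio ran from 2.82 in replicate 1 to 10.1 in replicate 12, with an SD of 0.70 on the log2 scale against 0.20 in controls. No difference in mean passed (exact permutation, smallest P = 0.227).

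**Figure D3:**
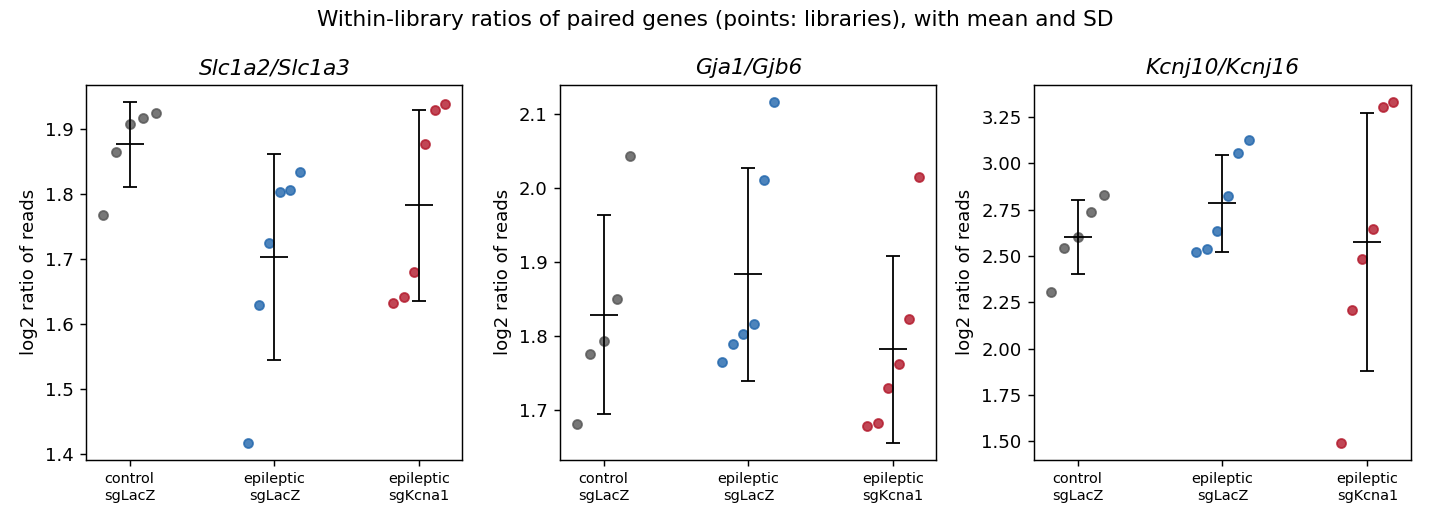
Log2 ratio of reads of 2 related genes within each library (y axis), by group, with 1 point per library and the mean with SD as a bar, and axes that do not start at 0. Slc1a2/Slc1a3 averages 1.70 in epileptic sgLacZ and 1.88 in control libraries, and Kcnj10/Kcnj16 is spread most widely in the epileptic sgKcna1 group.

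Each of the 8 genes was also measured against the mean log2 CPM of the 8 astrocyte identity markers in the same library. Those markers did not move one way. In epileptic against control sgLacZ libraries their log2 fold changes ran from -0.82 to 0.65, with a median of 0.19. A difference from their mean therefore depends on which markers are averaged. Of 24 such differences between groups none passed after adjustment. With 6 against 5 libraries the smallest P that this exact test can give is 0.0022. A single difference therefore could not pass after adjustment over 24 tests, even with groups fully apart. Slc1a3 was 0.27 higher relative to the markers in epileptic than in control sgLacZ libraries (two-sided exact permutation, P = 0.0325, adjusted P = 0.390) and 0.18 higher in epileptic sgKcna1 than in control libraries (exact permutation, P = 0.0152, adjusted P = 0.364). Kcnj10 was 0.39 lower in epileptic sgKcna1 than in epileptic sgLacZ libraries (difference -0.39, exact permutation P = 0.0563, adjusted P = 0.450). Glul, Gja1 and Gjb6 were each between -0.09 and -0.04 relative to the markers in epileptic against control sgLacZ libraries.

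The 8 genes did not vary as a single block from library to library. With group means removed, Pearson's r over the 17 libraries was computed for all 28 pairs, and 1 passed after adjustment. This pair was Kcnj16 and Slc1a3, with r = 0.77 and Spearman's rho = 0.82 (permutation P = 5.0e-05 and 0.00035, adjusted over the 28 pairs 0.0014 and 0.0098). Its r was 0.79 without the 2 libraries farthest from the median of Kcnj16 (the first gene named, here and for the pairs that follow), 0.78 without epileptic sgKcna1 replicate 12 and 0.77 without epileptic sgLacZ replicate 4. Kcnj10 and Slc1a3 had r = 0.77 and rho = 0.62 (permutation P = 0.0044 and 0.0303, adjusted 0.0619 and 0.148), and r was 0.51 without the 2 farthest libraries. Slc1a2 and Slc1a3 had r = 0.69 and rho = 0.69 (permutation P = 0.0067 and 0.0079, adjusted 0.0624 and 0.108), and r was 0.71 without the 2 farthest.

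Gja1 and Gjb6 had r = 0.61 and rho = 0.34 (permutation P = 0.0521 and 0.210, adjusted 0.182 and 0.573), but r was 0.27 without epileptic sgKcna1 replicate 12 and 0.12 without the 2 farthest libraries, so this relation rests on those libraries. Aqp4 and Glul went in opposite directions, with r = -0.56 and rho = -0.61 (permutation P = 0.0279 and 0.0172, adjusted 0.144 and 0.120). Of the 28 pairs 19 had a positive r, and the median r was 0.27, or 0.12 without replicate 12. Grouped after the values were seen, and so with no test, the 6 pairs among Kcnj10, Kcnj16, Slc1a2 and Slc1a3 had r from 0.38 to 0.77, and the 12 pairs of these 4 genes with Glul, Gja1 and Gjb6 had r from -0.15 to 0.43. All pairs share the libraries, their depth and their share of unmapped reads.

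**Figure D4:**
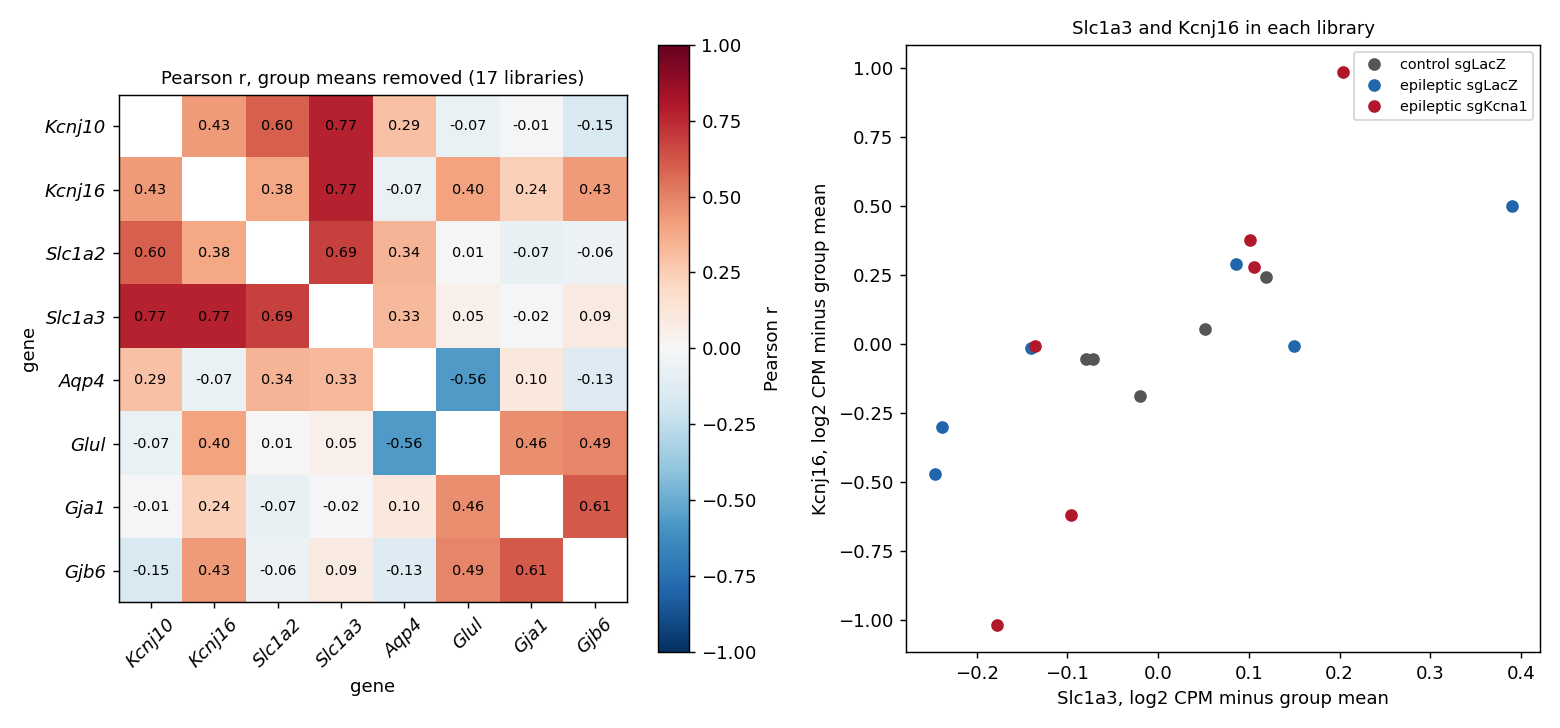
Left, Pearson's r (colour and number) between the log2 CPM of each pair of the 8 genes over 17 libraries after group means were removed. Right, Kcnj16 against Slc1a3 in each library as log2 CPM minus the group mean, coloured by group, where the points rise together with r = 0.77.

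Among partners of potassium and water handling, 2 of 13 genes passed in epileptic against control sgLacZ libraries, 1 higher and 1 lower, where 7.26% of all genes were called higher and 3.76% lower. Dag1, which encodes dystroglycan, the anchor of the end-foot complex that holds aquaporin-4, rose by 0.72 ± 0.22 (SE) on the log2 scale, from a mean of 48.0 to 78.7 CPM (edgeR, adjusted P = 0.0445). Kcnk2, which encodes the TREK-1 two-pore potassium channel, fell by 0.42 on the log2 scale, from 77.7 to 58.0 CPM (edgeR, adjusted P = 0.0414). The median of the 13 was 0.18. All calls among partners and markers hang on single libraries. Without epileptic sgLacZ replicate 4, 7 or 9, or control replicate 13, 14, 16 or 23, the number of genes called in this comparison was 0 of all genes tested, so each call named here was lost. It was 519 without control replicate 15 and 5526 without epileptic sgLacZ replicate 5.

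In the glutamate-glutamine cycle 1 of 11 partners passed in epileptic against control sgLacZ libraries. Of all genes 11% passed there, and 34.7% had an unadjusted P under 0.05. Slc17a7, the vesicular glutamate transporter VGLUT1 of excitatory neurons, rose by 0.77 ± 0.21 (SE) on the log2 scale, from 698 to 1189 CPM (edgeR, adjusted P = 0.0366), and the median of the 11 was 0.02. Of the other connexins and pannexins 0 of 9 passed, with 1 of 9 at an unadjusted P under 0.05, and their median was -0.05. Panx2, a pannexin, had a log2 fold change of 0.42 (edgeR, adjusted P = 0.0932), and Gjc1, connexin 45, had -0.42 in epileptic sgKcna1 against epileptic sgLacZ libraries (edgeR, adjusted P = 0.277). No partner passed in either comparison that involves sgKcna1, where 0% of all genes did by edgeR.

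Of the astrocyte identity markers 1 of 8 passed in epileptic against control sgLacZ libraries, where 11% of all genes did. Aldh1l1, a folate enzyme specific to astrocytes, rose by 0.33 on the log2 scale, from 37.9 to 47.7 CPM (edgeR, adjusted P = 0.0391), and the median of the 8 was 0.19, beside 0.17 for the clearance genes. The list did not move one way: at an unadjusted P under 0.05, 3 of 8 were higher and 2 lower. The lower pair, named after their values were seen, were Sox9, a transcription factor of astrocytes, with a log2 fold change of -0.82 (edgeR, adjusted P = 0.0756), and Cldn10, a claudin, with -0.35 (edgeR, adjusted P = 0.128). Of the reactive astrocyte markers 2 of 8 passed, both higher, where 7.26% of all genes were called higher, and the median was 0.45. At an unadjusted P under 0.05, 4 of 8 were higher and 0 lower, beside 18.8% of all genes higher. Vim, at -0.05 (edgeR, adjusted P = 0.866), and Cd44, at -0.16 (edgeR, adjusted P = 0.779), lay below 0 and were named after their values were seen. Gfap, the intermediate filament of astrocytes, rose by 0.60 ± 0.18 (SE), from 310 to 470 CPM (edgeR, adjusted P = 0.0447). Osmr, the oncostatin M receptor, rose by 0.93 ± 0.24 (SE) on the log2 scale, from 2.37 to 4.54 CPM (edgeR, adjusted P = 0.0347).

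Markers of other cells were read beside the clearance genes. Over all genes, 11% passed in epileptic against control sgLacZ libraries by edgeR, and 34.7% had an unadjusted P under 0.05. In epileptic against control sgLacZ libraries 1 of 8 neuronal markers passed (Nefl, a neurofilament, fell by 0.34 on the log2 scale, edgeR adjusted P = 0.0403), 1 of 8 microglial markers (Csf1r, a growth factor receptor, rose by 0.38, edgeR adjusted P = 0.0356) and 1 of 6 tested ependymal markers (Tmem212 fell by 1.23, edgeR adjusted P = 0.0449). These lists held members on both sides of 0. At an unadjusted P under 0.05 the neuronal list had 1 higher and 3 lower with a median of -0.11, the microglial list 2 higher and 0 lower with a median of -0.13, and the ependymal list 2 higher and 2 lower with a median of 0.07. The higher ones of the neuronal and ependymal lists, named after their values were seen, were Syn1, a synaptic vesicle gene (log2 fold change 0.49, edgeR adjusted P = 0.0684), and Hydin (1.17, adjusted P = 0.0803) and Tekt1 (0.54, adjusted P = 0.121), genes of motile cilia. None of 8 oligodendrocyte, 4 precursor, 8 endothelial or 8 choroid plexus markers passed by edgeR, with 1, 0, 2 and 0 of them at an unadjusted P under 0.05. The genes named from these lists were Tek (log2 fold change 0.34, edgeR adjusted P = 0.131) in that comparison, and Mag (-0.41, adjusted P = 0.265), Gpr17 (-0.39, adjusted P = 0.288), Pecam1 (-0.25, adjusted P = 0.231), Aqp1 (-1.36, adjusted P = 0.214) and Slc4a5 (-1.49, adjusted P = 0.228) in epileptic sgKcna1 against epileptic sgLacZ libraries. Neu4, a precursor marker like Gpr17, had -0.23 in epileptic against control sgLacZ libraries (edgeR, adjusted P = 0.292). The other precursor markers, named after their values were seen, lay above 0 there. Gpr17 had 0.33, Cspg4 0.21 and Pdgfra 0.13, and the median of the 4 was 0.17. No marker of any list passed in the comparisons that involve sgKcna1, where 0% of all genes did by edgeR. For Kcnk2, Aldh1l1, Nefl, Csf1r and Gpr17 the strand counts added up to over 5% more than the unstranded count, so these share reads with a gene on the opposite strand and their values are uncertain.

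Tissue content varied between libraries. The summed choroid plexus markers ran from 1208 to 12603 CPM in control, from 4497 to 11535 in epileptic sgLacZ and from 295 to 7880 in epileptic sgKcna1 libraries. The oligodendrocyte markers ran from 6768 to 9759, from 5155 to 7551 and from 2862 to 10815 CPM in the same order. The part of these differences in the clearance gene values was not tested.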

How the data were processed

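Poly(A) RNA from 17 adult mouse hippocampi was sequenced, 1 library per label. The authors aligned reads to mm10 with STAR 2.7 and deposited raw counts per gene for reads of either strand and for each strand. The annotation release is not given in the sources used here. Reads of either strand were used: the labels name a kit without strand information and the study's methods a stranded one, and reverse-strand to forward-strand reads stood at 0.994 to 0.998. Reads mapping to several places are left out of such counts.

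Counts were tested in R 4.3.3 with edgeR 4.0.16 (filterByExpr, TMM, quasi-likelihood F test, two-sided, 17 libraries in 1 fit without covariates, Benjamini-Hochberg adjustment over 17615 genes, threshold 0.05). CPM are TMM-scaled, and log2 CPM used a prior count of 2. Exact permutation tests went through every split of the libraries in Python 3.11.15. Other permutation tests used 100000 shuffles within groups with numpy 2.4.6, with ranks from scipy 1.17.1. Ratios used reads plus 0.5. Alternatives included DESeq2 1.42.0 and limma 3.58.1. Scripts were tested on simulated data. Symbols came from a table of Ensembl identifiers (32620 matched). Exon lengths and GC content came from an mm9 annotation and no coordinate did. Between 11839240 and 28311328 reads per library fell in genes. Libraries of a group differed by more than sampling noise (chi-square per degree of freedom from 8.67). Nothing in the labels says how the mice were pooled or housed, so P-values measure the spread between these samples.

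The 8 genes and the lists were chosen with earlier results of these data known. Named beside the 8 genes and Kcna1 are list genes past the threshold (at most 4 per list and comparison), or otherwise the 2 with the smallest P, and the 10 genes most like the mean of the 8. Some genes that this rule names are not reported here.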

Additional observations from a re-analysis of the deposited data

Results flagged for a closer look

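Of 33 sets of values tested (8 genes and 3 ratios in 3 groups), 3 had 1 library whose gap to the next was a large part of the group's whole range. Chance gives about 1 in 20. Kcnj10 was highest at 91.9 CPM in control replicate 23, where the other 4 controls lay between 69.8 and 73.0. Glul was highest at 1566 CPM in epileptic sgLacZ replicate 5, where the next value was 1423. Gja1 was lowest at 151 CPM in epileptic sgKcna1 replicate 12, the shallowest library, where the next value was 203.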

How the results depend on the processing

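No paired analysis was possible because the groups share no replicate numbers. In epileptic against control sgLacZ libraries the number of the 8 genes past the threshold was 1 with DESeq2 (Slc1a3), 1 with both strand counts added (Slc1a3) and 2 with limma voom (Slc1a3 and Kcnj10), and 0 with other size factors, no filter, the 2 groups alone, or the unmapped share or sex (read from sex-linked genes) as a covariate. Leaving out single libraries gave 0 to 2, with 2 without epileptic sgLacZ replicate 5 and 1 without epileptic sgLacZ replicate 8 or epileptic sgKcna1 replicate 12. In epileptic sgKcna1 against epileptic sgLacZ libraries it gave 0 to 1, and in epileptic sgKcna1 against control libraries, the ratios and the values relative to markers it gave 0. For the values relative to markers, the limit on a single difference given above holds here too. Over all genes the first comparison had 1940 calls in edgeR, 3539 with DESeq2, 2740 with both strands added, 3045 with the 2 groups alone, 7301 with voom, 428 with the unmapped share and 516 with sex. In epileptic sgKcna1 against epileptic sgLacZ libraries voom made 12 calls, DESeq2 112 and edgeR 0, or 1508 without epileptic sgLacZ replicate 5. In epileptic sgKcna1 against control libraries edgeR made 0 calls, DESeq2 39, voom 71 and edgeR with the unmapped share 266. Of 624 recomputed log2 fold changes of the 8 genes, 566 kept their direction and side of the threshold, 9 newly passed and 49 changed sign, none of those past the threshold. The cause was not tested. With voom the sign changed, to -0.023 for Glul in epileptic against control sgLacZ libraries, 0.021 for Gja1 in epileptic sgKcna1 against epileptic sgLacZ libraries and 0.043 for Kcnj10 and 0.048 for Gja1 in epileptic sgKcna1 against control libraries. With the unmapped share as a covariate the sign changed, to -0.17 for Kcnj16, -0.010 for Glul and -0.017 for Gja1 in epileptic against control sgLacZ libraries, 0.32 for Kcnj16, 0.044 for Slc1a2 and 0.049 for Slc1a3 in epileptic sgKcna1 against epileptic sgLacZ libraries and 0.026 for Kcnj10 in epileptic sgKcna1 against control libraries. With sex as a covariate the sign changed, to 0.0063 for Gjb6 in epileptic against control sgLacZ libraries, 0.010 for Slc1a2 and -0.00042 for Gjb6 in epileptic sgKcna1 against epileptic sgLacZ libraries and 0.0022 for Kcnj10 in epileptic sgKcna1 against control libraries. With no filter on low counts the sign changed, to -0.0033 for Glul in epileptic sgKcna1 against epileptic sgLacZ libraries. Without both libraries that stood apart, a choice made after seeing the data, the sign changed, to 0.19 for Kcnj16, 0.0084 for Slc1a2 and 0.018 for Slc1a3 in epileptic sgKcna1 against epileptic sgLacZ libraries and 0.032 for Kcnj10, -0.0020 for Aqp4 and 0.039 for Gja1 in epileptic sgKcna1 against control libraries. Log2 fold changes that crossed 0 when single libraries were left out ran as follows, Glul from -0.025 to 0.048 and Gjb6 from -0.077 to 0.0021 in epileptic against control sgLacZ libraries, Kcnj16 from -0.32 to 0.076, Slc1a2 from -0.041 to 0.028, Glul from -0.010 to 0.044 and Gja1 from -0.10 to 0.0035 in epileptic sgKcna1 against epileptic sgLacZ libraries, and Kcnj10 from -0.048 to 0.065, Kcnj16 from -0.087 to 0.30, Aqp4 from -0.017 to 0.10, Glul from -0.013 to 0.058, Gja1 from -0.065 to 0.037 and Gjb6 from -0.042 to 0.068 in epileptic sgKcna1 against control libraries. Some differences between groups in mean log2 ratio crossed 0 when single libraries were left out or a setting was changed. They ran for Kcnj10/Kcnj16 from -0.36 to 0.010 in epileptic sgKcna1 against epileptic sgLacZ libraries. In epileptic sgKcna1 against control libraries they ran for Gja1/Gjb6 from -0.094 to 0.0066 and for Kcnj10/Kcnj16 from -0.18 to 0.19. Some differences between groups in the values relative to the astrocyte markers also crossed 0 under such changes. They ran for Slc1a2 from -0.052 to 0.024 and for Glul from -0.011 to 0.025 in epileptic sgKcna1 against epileptic sgLacZ libraries. In epileptic sgKcna1 against control libraries they ran for Kcnj16 from -0.24 to 0.12 and for Aqp4 from -0.10 to 0.033.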

Other observations

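Over the 17 libraries, 11678 genes with a mean of at least 5 CPM were ranked by how closely their log2 CPM followed the mean of the 8 clearance genes. Among the 10 closest were Zc3h7b, Zbtb43, Grid1, Acsbg1, Asrgl1, Wiz, Mpp2, Pdxk and Clpb. Pearson's r of the 10 lay between 0.93 and 0.94, and between 0.84 and 0.87 without the 2 libraries farthest from the median. These were epileptic sgLacZ replicate 4, where the mean lay 0.30 above its average, and epileptic sgKcna1 replicate 12, where it lay at -0.31. Acsbg1 is among the astrocyte identity markers. The values describe likeness over libraries that share depth and unmapped share.

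Across 14619 genes with a known GC content, log2 fold change and GC content had a Spearman correlation of 0.22 in epileptic against control sgLacZ libraries, -0.21 in epileptic sgKcna1 against epileptic sgLacZ libraries and 0.12 in epileptic sgKcna1 against control libraries, and genes are not independent replicates. Values relative to the median of genes of like GC content (10 equal bins) were added after seeing the data. In epileptic against control sgLacZ libraries Kcnj10 stood at 0.37, Slc1a3 at 0.36, Aqp4 at 0.29 and Kcnj16 at 0.28. Slc1a2 stood at 0.17, Gja1 at 0.09, Glul at -0.06 and Gjb6 at -0.09.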
